A study of Mus musculus with 4 samples.

Results

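The genes described here are 9 mouse genes known as negative feedback regulators of TGF-β signaling: Pmepa1, Smad7, Skil, Ski, Smurf1, Smurf2, Tgif1, Bambi and Ldlrad4. They were taken by gene name from the 54532 genes of the deposited count table. The list was chosen on knowledge of the pathway together with earlier fold changes of the same comparison, in which Pmepa1 was among the genes with the smallest p-values. The values of these genes are therefore given as a description, without p-values, and their calls are no support for a response of the pathway. The cells were MPC5, a conditionally immortalized mouse podocyte line, so all libraries come from a single immortalized line. In the IL-12 treatment group (2 libraries) the cells were exposed for 6 h to IL-12 at 400 ng/ml, whereas those of the control group (2 libraries) received saline. Whether replicate libraries came from separate cultures is not stated, so the spread between libraries may be technical. The standard errors draw on this spread together with the spread shared across genes.

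TGF-β binds a pair of kinase receptors at the cell surface, and these phosphorylate SMAD2 and SMAD3, which enter the nucleus with SMAD4 and regulate target genes. Several of the genes switched on in this way encode inhibitors of the same cascade, so the pathway limits itself. In podocytes, TGF-β is known for its association with matrix accumulation, loss of specialized structure and glomerulosclerosis. The inhibitors act at different levels: at the receptor (Smad7, the Smurf ligases and Bambi), on the delivery of SMAD2 and SMAD3 to the receptor (Pmepa1 and Ldlrad4), and on SMAD complexes in the nucleus (Ski, Skil and Tgif1).

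The total counts ranged from 18355379 to 20098012 per library, so that 3 counts correspond to between 0.149 and 0.163 CPM (counts scaled to a common library size), a floor that covers counting error only. Replicate libraries were not copies of each other: chi-square over degrees of freedom was 2.13 between the controls and 2.41 between the IL-12 libraries, where sampling alone gives about 1, so each was used as a replicate. Of 15 podocyte markers, 10 had at least 10 counts in every library. Nphs1, Ptpro and Tcf21, which mark mature podocytes, had at most 1 count in any library, and Wt1 counts were 4 and 16 in the controls and 4 and 8 with IL-12. Other podocyte markers were well counted and moved both ways. Synpo fell from 489 and 470 CPM to 302 and 307 CPM with IL-12. Nes rose from 609 and 603 CPM to 1228 and 1237 CPM, and Podxl from 60.8 and 52.6 CPM to 72.8 and 70.0 CPM. The summed level of the 15 markers was 4711 to 4749 CPM in the controls and 5439 to 5509 CPM with IL-12. Of the receptor chains for IL-12, Il12rb1 counts were 25 and 8 in the controls and 18 and 26 with IL-12, and Il12rb2 had 0 and 0 counts against 1 and 4.

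Of the 9 feedback genes, 8 passed the filter on low counts, and Bambi did not. Pmepa1, Skil, Smad7 and Ldlrad4 rose and Ski fell with IL-12, while Smurf1, Smurf2 and Tgif1 did not pass the test. In numbers, 4 of the 9 genes were called higher by edgeR's quasi-likelihood test (adjusted p below 0.05 at any fold change, Benjamini-Hochberg over the 14095 genes tested), where 16.1% of all tested genes were, and 1 was called lower, where 14.4% were. With the fold change over 2 that the study used for screening, the count was 1 gene, Pmepa1, where 0.858% of all tested genes were called higher. Since the list was drawn up with this comparison in view, nothing is read from these counts against the background. Both IL-12 libraries lay above both control libraries in CPM for 6 of the 9 genes, as for 31.7% of all tested genes, and below both in 1 gene, as for 31.2%. Of the genes called, 52.8% were higher with the TMM scaling used here and 40.5% with scaling by total counts alone, and the calls of the feedback genes were the same under both. In these bulk samples, fewer cells of a type and less RNA per cell cannot be told apart.

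**Figure D1:**
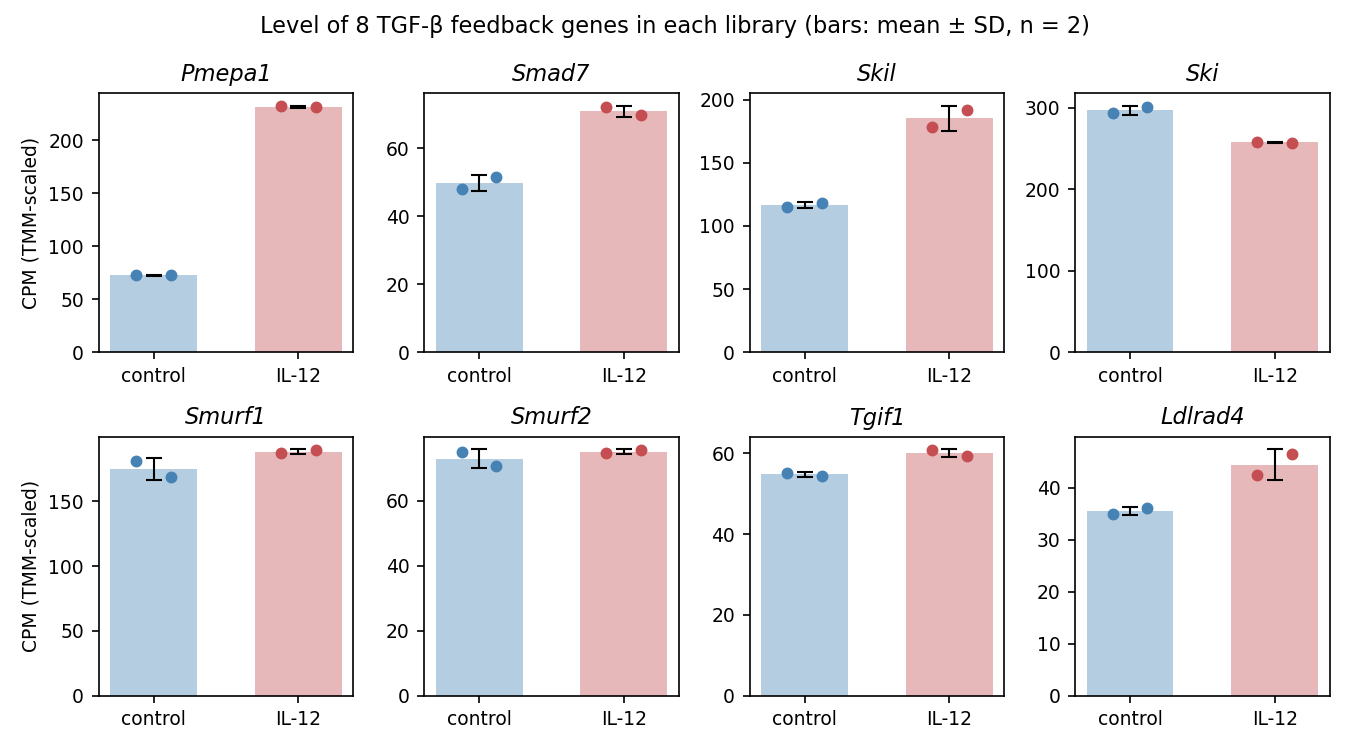
CPM scaled by the TMM method (y axis, a separate scale starting at 0 in each panel) for the 8 feedback genes that passed the filter. Points are the 2 libraries of each group, and bars and whiskers are mean ± SD (n = 2). Pmepa1 lies at 73.2 and 72.5 CPM in the controls and at 232 and 231 CPM with IL-12, while Ski is the gene whose IL-12 libraries lie below its controls.

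Pmepa1 and Ldlrad4 encode related transmembrane proteins that hold SMAD2 and SMAD3 away from the activated receptor. Pmepa1 (ENSMUSG00000038400, chromosome 2 from 173224458 to 173276533, minus strand, GRCm38) had 73.2 and 72.5 CPM in the controls and 232 and 231 CPM with IL-12. The groups were far apart, and the libraries within a group were almost equal. The change was 3.18-fold, or 1.67 ± 0.04 in log2 (log2 fold change ± standard error, SE). By log2 fold change Pmepa1 was at rank 43 of the 14095 genes tested. Ldlrad4 (ENSMUSG00000024544, chromosome 18 from 67933257 to 68255549, plus strand) had 35.0 and 36.0 CPM in the controls and 42.4 and 46.5 CPM with IL-12. Its IL-12 libraries were both above the controls, but the rise was smaller than that of its relative, 1.25-fold, with a log2 fold change of 0.32 (SE 0.07). Ldlrad4 was at rank 1588 by log2 fold change.

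As levels per gene length (the deposited FPKM, fragments scaled by gene length and library size), Pmepa1 and Ldlrad4 were close in the control group, with 14.8 ± 0.0793 and 14.2 ± 0.295 FPKM (SD, n = 2). The deposited Ldlrad4 gene, with a length of 2493 bases, ends at 68255549, whereas GENCODE M21 ends it at 68268630. Its level against other genes depends on that deposited length. With IL-12 they were 47.2 ± 0.163 and 17.8 ± 1.17 FPKM (SD, n = 2). The ratio of Pmepa1 to Ldlrad4 was thus 1.06 and 1.02 in the controls and 2.78 and 2.52 with IL-12.

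Smad7 encodes the inhibitory SMAD that binds the activated type I receptor and brings the Smurf ubiquitin ligases to it. Smad7 (ENSMUSG00000025880, chromosome 18 from 75367529 to 75395935, plus strand) had 48.1 and 51.6 CPM in the controls and 72.0 and 69.7 CPM with IL-12. The groups did not overlap, and the gap between them exceeded the spread within either group. The change was 1.42-fold, or 0.51 in log2 (SE 0.06).

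Smurf1 and Smurf2 encode the ubiquitin ligases that mark SMADs and receptors for degradation. Smurf1 (ENSMUSG00000038780, chromosome 5 from 144876495 to 144965847, minus strand) had 181 and 169 CPM in the controls and 187 and 190 CPM with IL-12. The IL-12 libraries were just above the controls, which themselves differed by more than that gap. Its log2 fold change was 0.11 (SE 0.04), which did not pass. Without control replicate 1, the log2 fold change of Smurf1 was 0.16 and passed. Smurf2 (ENSMUSG00000018363, chromosome 11 from 106820066 to 106920715, minus strand) had 75.0 and 70.8 CPM against 74.7 and 75.7 CPM, so its groups overlapped, and its log2 fold change was 0.04 (SE 0.05). The ratio of Smurf2 to Smurf1 in FPKM was 0.426 and 0.431 in the controls and 0.410 and 0.410 with IL-12. Smurf1 and Smurf2 each contain an annotated microRNA gene on the same strand, which had 0 counts in every library, and no other feedback gene overlaps an annotated gene.

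Bambi encodes a pseudoreceptor that resembles a type I receptor without a kinase domain. Bambi (ENSMUSG00000024232, chromosome 18 from 3507957 to 3516404, plus strand) had counts of 1 and 3 in the controls and 8 and 0 counts with IL-12. The group totals lie near the floor, the highest and the lowest count are both in the IL-12 group, and no fold change is given. A difference in Bambi was not detectable at this depth.

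Ski and its relative Skil (also called SnoN) encode nuclear proteins that bind SMAD complexes and recruit corepressors, and both proteins are themselves degraded when the pathway is active. The mRNAs of this pair moved in opposite directions. Skil (ENSMUSG00000027660, chromosome 3 from 31095058 to 31122577, plus strand) had 115 and 118 CPM in the controls and 178 and 192 CPM with IL-12. The groups were well apart although the IL-12 libraries differed more than the controls did. The change was 1.59-fold, or 0.67 in log2 (SE 0.04). Ski (ENSMUSG00000029050, chromosome 4 from 155154075 to 155222592, minus strand) had 293 and 301 CPM in the controls and 258 and 257 CPM with IL-12. Both IL-12 libraries were below both controls, and Ski fell to 0.867 times its control level, or -0.21 in log2 (SE 0.03). The ratio of Skil to Ski in FPKM was 0.225 and 0.226 in the controls and 0.396 and 0.429 with IL-12, so it was higher in both IL-12 libraries.

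Tgif1 encodes a homeodomain protein that joins SMAD2 in the nucleus and recruits histone deacetylases. Tgif1 (ENSMUSG00000047407, chromosome 17 from 70844205 to 70853546, minus strand) had 55.2 and 54.4 CPM in the controls and 60.8 and 59.5 CPM with IL-12. The groups did not overlap, but the log2 fold change was 0.13 (SE 0.05) and did not pass the test over all genes.

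The promoter sequences of the nuclear corepressors that RefSeq lists (build GRCm38.p6) are shown because Ski was the one feedback gene that fell and Tgif1 is named for its induction by TGF-β. RefSeq promoter windows were matched by symbol for 4 of the 9 genes: Ski, Smurf1, Smurf2 and Tgif1. Pmepa1, Smad7, Skil, Bambi and Ldlrad4 were not matched. Each window of 300 bases runs from 250 before the start to 50 after it, and the part before the annotated gene is printed 5′ to 3′ on the minus strand. Ski is shown at chr4:155222593-155222785 and the most upstream of the 5 Tgif1 windows at chr17:70853547-70853782, with matches to the searched motifs in capitals.
Ski: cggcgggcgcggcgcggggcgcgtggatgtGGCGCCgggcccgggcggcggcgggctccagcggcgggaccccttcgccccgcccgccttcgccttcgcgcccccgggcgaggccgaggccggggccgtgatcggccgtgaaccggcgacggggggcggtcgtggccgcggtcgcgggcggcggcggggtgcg
Tgif1: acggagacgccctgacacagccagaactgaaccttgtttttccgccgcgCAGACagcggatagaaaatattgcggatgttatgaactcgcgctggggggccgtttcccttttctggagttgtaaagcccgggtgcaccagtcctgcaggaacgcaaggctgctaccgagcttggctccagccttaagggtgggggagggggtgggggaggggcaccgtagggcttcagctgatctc

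The motifs searched on both strands were CAGAC (the SMAD box), GGCGCC (the GC-rich SMAD box) and TGANTCA (the AP-1 site), none of which contains another. The Ski window held 0 matches to CAGAC and 1 to GGCGCC, and the Tgif1 window shown held 1 to CAGAC and 0 to GGCGCC. The Tgif1 windows not shown held 2, 0, 1 and 0 matches to CAGAC and 0 to GGCGCC. The Smurf1 window held 2 matches to CAGAC, and the Smurf2 window held 2 to CAGAC and 2 to GGCGCC. In only the 250 bases before the start, the Smurf2 window held 1 match to CAGAC. No window of these genes held TGANTCA. Over all 32851 windows of the same length, 49.6% held CAGAC, 11.9% GGCGCC and 7.81% TGANTCA, so a match to CAGAC is common. The bases before the start were 87.6% G or C in Ski and 59.6% in the Tgif1 window shown, against a median of 52.4% over all windows. A match is a description of the letters only.

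**Figure D2:**
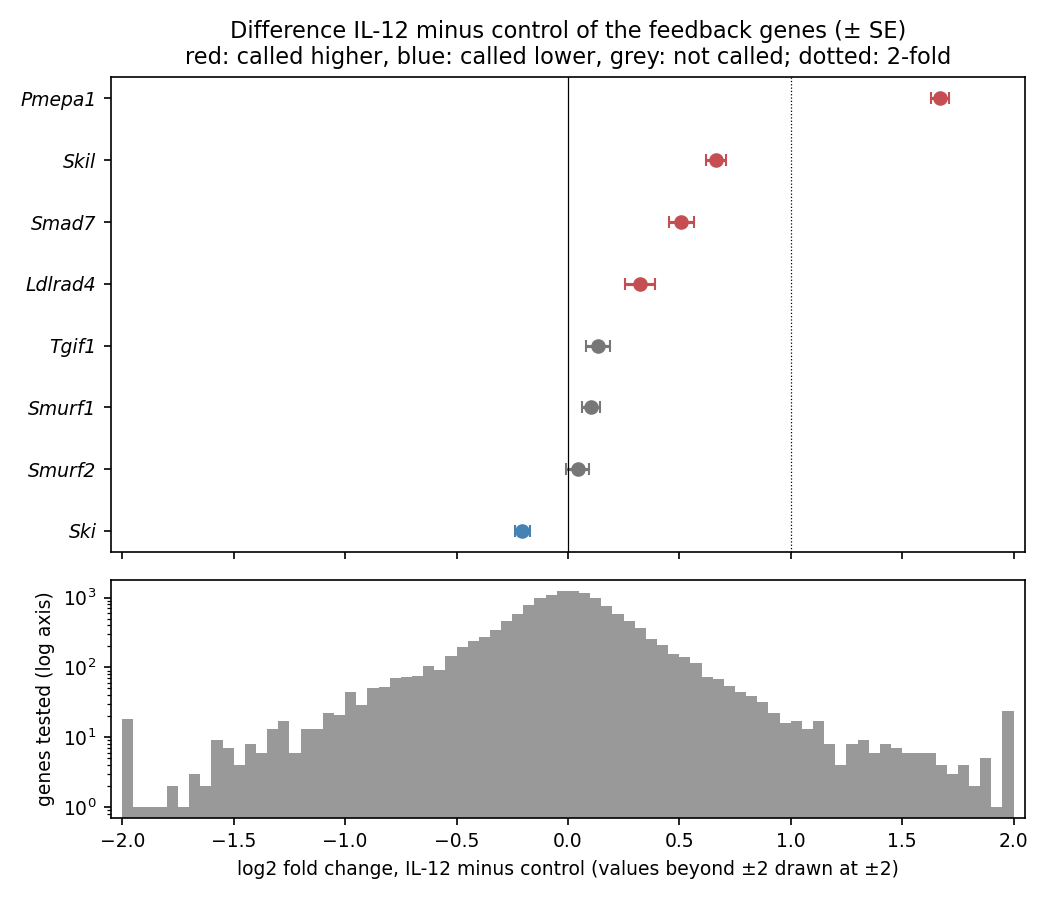
Upper panel: log2 fold change of IL-12 minus control (x axis) for the 8 tested feedback genes with the standard error as whiskers, the dotted line marking 2-fold. Lower panel: the log2 fold changes of all 14095 tested genes, as the number of genes on a log axis, with values beyond 2 in either direction drawn at the edges. Pmepa1 at 1.67 lies beyond the 2-fold line, Skil, Smad7 and Ldlrad4 lie between 0.32 and 0.67, and Ski lies at -0.21.

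The order of the levels per gene length changed between the groups. In the control group Ski was highest with 53.4 ± 1.03 FPKM (SD, n = 2), followed by Smurf1 with 27.7 ± 1.32, Pmepa1, Ldlrad4, Skil, Smurf2, Smad7 and Tgif1, the last with 9.74 ± 0.0818. Skil and Smurf2 did not differ beyond their spread there, and the ranges of the other neighbours did not overlap. In the IL-12 treatment group Pmepa1 was highest with 47.2 ± 0.163 FPKM (SD, n = 2), just above Ski with 46.3 ± 0.107. Smurf1 followed with 29.8 ± 0.284, then Skil with 19.1 ± 1.03, Ldlrad4 with 17.8 ± 1.17, Smad7 with 15.7 ± 0.364, Smurf2 with 12.2 ± 0.117 and Tgif1 with 10.7 ± 0.161. Here Skil and Ldlrad4 overlapped. Bambi was last in both groups. Counts per kilobase of gene length with TMM scaling gave each of the 9 genes the same rank in both groups, with the same deposited gene lengths.

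**Figure D3:**
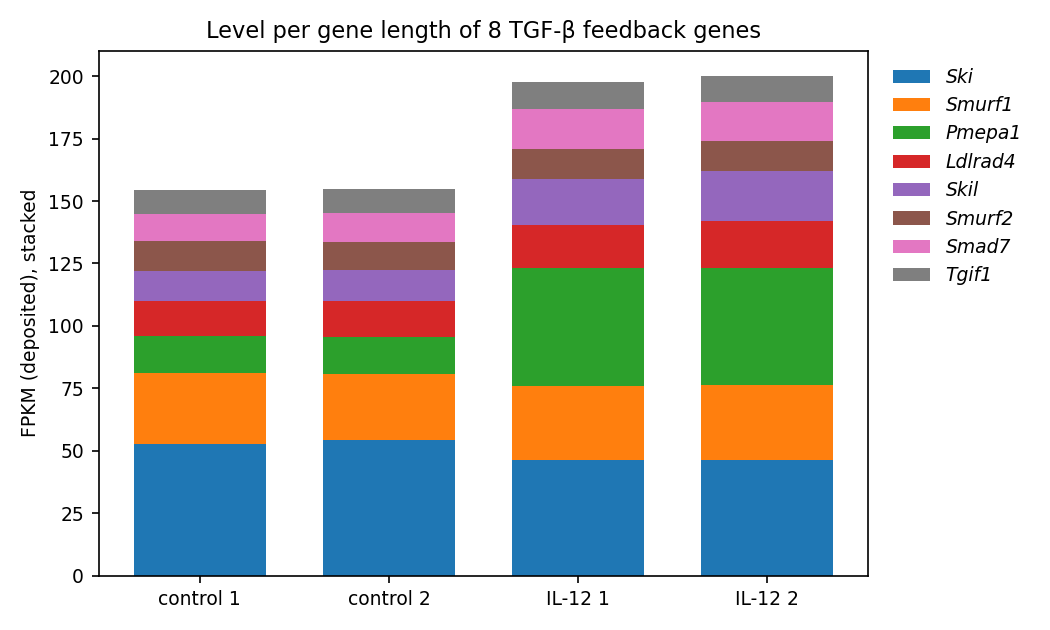
Deposited FPKM (y axis) of the 8 feedback genes above the count filter, stacked for each of the 4 libraries. The stacks reach 154.6 and 154.9 FPKM in the controls and 197.7 and 200.2 FPKM with IL-12, and the Pmepa1 segment grows while the Ski segment shrinks.

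Summed over the 9 genes, the FPKM was 154.6 and 154.9 in the controls and 197.7 and 200.2 with IL-12. The mean increase was 44.2 FPKM, to which Pmepa1 added 32.4, Skil 7.08, Smad7 4.67 and Ldlrad4 3.60, whereas the difference for Ski was -7.05. Without Pmepa1 the sum was 139.9 FPKM in the control group and 151.7 FPKM in the IL-12 treatment group. Pmepa1 made up 9.62% and 9.53% of the sum in the controls and 23.9% and 23.5% with IL-12, and Ski 34.1% and 34.9% against 23.5% and 23.1%. These sums and shares use the values that describe the chosen genes and carry no test.

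The genes whose profile over the 4 libraries was most like that of Pmepa1 were Gsto1, Ptgs2, Col4a4, Ctgf and Col4a3, among 9495 genes of at least 10 CPM on average. Likeness was the Euclidean distance between log2 CPM profiles, each centred on its own control mean, and it was 0.087 for Gsto1, 0.096 for Ptgs2 and 0.178 for Col4a3, the last of the 5. Gsto1, a glutathione transferase of the omega class, had 72.9 and 75.6 CPM in the controls and 234 and 224 CPM with IL-12. With 4 libraries in 2 groups, likeness mostly means a change of about the same size.

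The other genes of the pathway were examined with lists that were likewise written with earlier results of these data known. Of 20 other inhibitors of TGF-β signaling, 18 were tested, of which 5 were called higher and 4 lower by edgeR's quasi-likelihood test, with a median log2 fold change of -0.035, where the median over all tested genes was -0.0022. The higher genes included Fst (follistatin, which binds activin), with 221 and 221 CPM against 273 and 282 CPM, and a log2 fold change of 0.33 (SE 0.04, adjusted p = 7.66e-07 by edgeR). Fkbp1a, whose product holds the type I receptor inactive, and Strap, whose product stabilizes the Smad7 complex at the receptor, had log2 fold changes of 0.27 and 0.22 (adjusted p = 2.30e-05 and 0.000173 by edgeR). Wwp1, a ubiquitin ligase related to the Smurf ligases, had 0.18 (adjusted p = 0.0124 by edgeR). Nedd4l, a further related ligase that acts on SMAD2 and SMAD3, fell most in this list, from 81.9 and 81.3 CPM to 53.5 and 55.7 CPM, or -0.58 in log2 (SE 0.05, adjusted p = 7.08e-08 by edgeR). Tob1 fell by 0.37, and the corepressor components Sin3a and Ncor1, with which Ski proteins work, fell by 0.22 and 0.14 on the log2 scale (adjusted p = 2.07e-05, 0.00541 and 0.00619 by edgeR). Without IL-12 replicate 1, 2 of these inhibitors were called lower. Smad6, the other inhibitory SMAD, which the list of BMP targets also holds, did not pass, with 77.0 and 81.6 CPM against 83.4 and 72.4 CPM (adjusted p = 0.808 by edgeR).

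Among 11 genes listed here as regulators or partners of the feedback proteins, 1 was called higher and 3 lower by edgeR. Over all tested genes, 16.1% were called higher and 14.4% lower. The median log2 fold change of this list was 0.039. Uchl5, a deubiquitinase, had a log2 fold change of 0.26 (adjusted p = 0.00782 by edgeR), and Usp11, Ep300 and Nedd4 had -0.49, -0.14 and -0.07 (adjusted p = 0.00774, 0.0221 and 0.0396 by edgeR). Rnf111 (Arkadia), the ligase that degrades SMAD7, SKI and SKIL proteins, did not pass, with 86.7 and 87.8 CPM against 84.8 and 82.8 CPM (adjusted p = 0.402 by edgeR). The calls of this list were not stable: leaving out IL-12 replicate 1 gave 0 higher and 0 lower, leaving out IL-12 replicate 2 gave 0 higher and 1 lower, and leaving out either control library gave 1 lower.

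Upstream of the feedback genes, 21 of 22 ligands, latent binding proteins, receptors and SMADs were tested. Of these, 4 were called higher and 7 lower by edgeR, where 16.1% and 14.4% of all tested genes were. The median log2 fold change of this list was -0.052. The largest rise among the called genes was that of Inhba, which encodes the activin A subunit, from 53.1 and 53.8 CPM to 111 and 115 CPM, or 1.08 in log2 (SE 0.05, adjusted p = 1.25e-11 by edgeR). Ltbp1 and Ltbp3, latent TGF-β binding proteins, had 0.58 and 0.14 (adjusted p = 1.27e-08 and 0.00213 by edgeR). The TGF-β ligands differed. Tgfb1 rose from 22.1 and 21.1 CPM to 28.1 and 26.2 CPM, or 0.33 in log2 (adjusted p = 0.00544 by edgeR). Tgfb2, at a higher level, fell from 88.5 and 91.6 CPM to 77.2 and 80.7 CPM, or -0.19 in log2 (adjusted p = 0.00597 by edgeR). Tgfb3 did not pass, with 0.09 (adjusted p = 0.348 by edgeR). Tgfbr3 (betaglycan, a coreceptor) fell from 94.6 and 90.4 CPM to 59.9 and 59.0 CPM, or -0.64 in log2 (SE 0.05, adjusted p = 1.63e-08 by edgeR). Acvr1b, Gdf11 and Smad3 had -0.41, -0.30 and -0.24 (adjusted p = 8.70e-05, 0.00179 and 4.52e-05 by edgeR). Tgfbr1, Tgfbr2, Smad2 and Smad4 did not pass, with log2 fold changes of -0.12, -0.05, -0.02 and -0.07.

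Downstream, 27 of 30 listed target genes of SMAD2 and SMAD3 were tested. Of these, 21 were called higher and 0 lower by edgeR, where 16.1% and 14.4% of all tested genes were. At an unadjusted p below 0.05, 22 were higher and 0 lower, where 2876 and 2682 of all 14095 tested genes were. The DESeq2 Wald test called 17 higher and 0 lower, both FPKM fits called 15 higher and 0 lower, and leaving out 1 library gave 17 to 20 higher and 0 lower. This list too was written with earlier results of these data known, so nothing is read from these counts against the background. The median log2 fold change of the tested targets was 0.44. Among them, Ctgf (connective tissue growth factor), Hmga2 (a chromatin protein) and Bhlhe40 (a transcription factor) had log2 fold changes of 1.55, 1.89 and 1.07 (adjusted p = 1.33e-16, 1.29e-15 and 9.04e-11 by edgeR). Bhlhe40 had 43.2 and 42.9 CPM in the controls and 86.2 and 94.1 CPM with IL-12. The cell cycle inhibitors Cdkn1a and Cdkn2b did not pass, with 0.05 and 0.0023. Of 12 target genes of BMP, the branch that Smad7 and Bambi also serve, 10 were tested. Of these 10, 2 were called higher and 1 lower by edgeR, against the same 16.1% and 14.4% of all tested genes. The median of the BMP targets was 0.019. Id2 and Id1, inhibitors of differentiation, had log2 fold changes of 0.22 and 0.17 and Atoh8 -0.38 (adjusted p = 0.000228, 0.00469 and 0.00224 by edgeR). Without IL-12 replicate 2 the call of Atoh8 was lost, and without IL-12 replicate 1 only 1 BMP target was called higher.

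**Figure D4:**
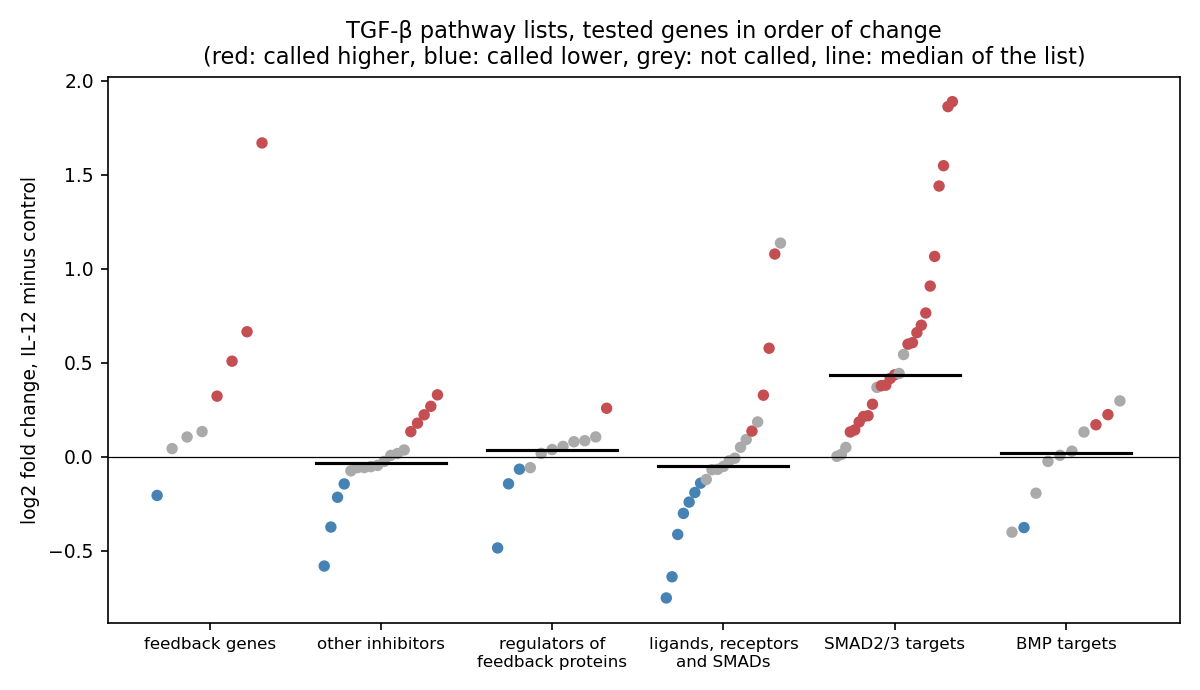
Log2 fold change of IL-12 minus control (y axis) for each tested gene of the feedback genes and of the 5 other lists, ordered within a list, with called genes in color and the median as a line for the 5 lists. Points of the SMAD2/3 target list lie above 0, with a median of 0.44, while the other 4 lists have points on both sides and medians between -0.052 and 0.039. All lists were written with earlier results of these data known.

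Markers of other cell types were given by the same libraries. All 7 T and NK cell markers had at most 1 count in every library, with Cd3e, Cd3g, Cd8a, Gzmb and Ifng at 0. Of 5 endothelial markers none reached 10 counts in every library. The summed level of 7 macrophage markers was 42.3 to 42.9 CPM in the control libraries and 26.0 to 29.4 CPM in the IL-12 libraries, with Adgre1 at 0, and 3 of the 7 had at least 10 counts in every library. Csf1r fell from 21.4 and 23.0 CPM to 11.1 and 13.0 CPM, and Cd14 from 15.7 and 13.8 CPM to 9.91 and 9.07 CPM. Cd68 did not fall, with 4.70 and 5.93 CPM against 4.70 and 6.52 CPM. Ptprc counts were 3 and 1 in the controls and 6 and 12 with IL-12. The summed level of 6 mesangial and fibroblast markers was 64.8 to 65.1 CPM against 75.6 to 84.7 CPM, and that of 5 tubular markers, nearly all of it Lrp2, was 632 to 659 CPM against 517 to 558 CPM. Their part in the changes of the feedback genes was not tested.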

How the data were processed

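RNA of MPC5 podocytes was sequenced as 2 control and 2 IL-12 libraries. The authors deposited raw read counts per gene and FPKM values without a stated unit in the header; dividing the counts by gene length and library total gave the same values up to a factor between 0.985 and 1.017, constant within a library. The submitters' processing notes name HISAT2, StringTie and the build mm9, whereas the deposited gene coordinates equal GENCODE M21 (GRCm38) for 98.3% of 54495 genes and for 7 of the 9 genes described (Bambi and Ldlrad4 differ at one end). The counting program, strand setting and treatment of multi-mapping reads are not given in the sources used here.

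Counts were filtered with filterByExpr (14095 genes kept), scaled by TMM (factors 0.985 to 1.015) and tested across all genes with edgeR 4.0.16 (quasi-likelihood, Benjamini-Hochberg) in R 4.3.3, without a replicate block. The standard error was taken as the absolute log2 fold change over the root of the F statistic. The members and lists were chosen with earlier results of these data known. Named genes are the 9 feedback genes, up to 4 called genes per list and direction by smallest p, and the 5 profiles most like Pmepa1 (log2 CPM, prior count 2); a gene this rule picks is not reported here, and other names were chosen after their values were seen. An exact permutation test of 2 against 2 libraries cannot go below 0.333, so p-values rest on the spread shared across genes. The libraries share replicate numbers, which pair nothing in the sources. Alternatives were DESeq2 1.42.0, limma 3.58.1 (voom, and log2(FPKM + 1) or log2(FPKM + 0.1)), other scalings and filters, a fold limit of 1.5, the block, each library left out, and promoter windows of 250 bases. The fits were also run on simulated counts, and nothing about the calls given here is read from that run. Python 3.11.15 and matplotlib 3.10.9 were used for plots.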

Additional observations from a re-analysis of the deposited data

How the results depend on the processing

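The calls of the feedback genes kept their direction in all 112 alternative fits of the 8 tested genes and their side of the threshold in 111 of them, the exception being Smurf1 without control replicate 1, which was then called higher. The log2 fold change ranged from 1.61 to 1.68 for Pmepa1, 0.61 to 0.72 for Skil, 0.46 to 0.56 for Smad7, 0.26 to 0.39 for Ldlrad4 and -0.25 to -0.19 for Ski. The number of feedback genes called higher over the fold limit was 2 at 1.5-fold, where 328 of the 14095 tested genes were. With the replicate number as a block, 4 feedback genes were called higher and 1 lower, where 2272 and 2069 of the 14095 tested genes were. The log2 fold change of Pmepa1 with the block was 1.67. The correlation of the deviations of same-numbered libraries was -0.0187 across 12778 genes, which are not independent. With 2 libraries per group, this value cannot decide whether same-numbered libraries were paired. Over all genes, the DESeq2 Wald test called 1492 higher and 1213 lower, and 64 and 39 over 2-fold. The limma fits on log2(FPKM + 1) called 1280 lower, and 30 higher and 8 lower over 2-fold. Those on log2(FPKM + 0.1) called 1277 lower, and 55 lower over 2-fold. A limit of 1.5-fold gave 328 higher and 365 lower. Of the other lists, the DESeq2 Wald test called 3 other inhibitors higher and 0 regulators of feedback proteins higher or lower. Both FPKM fits called 0 of those regulators lower, and no filter left 1. Leaving out 1 library at a time gave 1404 to 2010 genes called higher and 1124 to 1712 lower over all genes, 62 to 123 lower over 2-fold, 2 to 4 other inhibitors lower, 0 to 1 regulators higher and 0 to 1 lower, and 1 to 3 BMP targets higher and 0 to 1 lower. The cause of these differences was not tested. Bambi, with at most 8 counts in a library, is the gene that depth limits.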
